A study of Mus musculus with 8 samples.

Results

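Type IIa myonuclei, the nuclei of muscle fibres that use the fast oxidative myosin heavy chain encoded by Myh2, were examined in single-nucleus RNA-seq of mouse gastrocnemius, a calf muscle. The nuclei were chosen by measured values: each was placed by the unique molecular identifiers (UMIs, tags that let each captured RNA molecule be counted once) of 4 myosin heavy chain genes, Myh1, Myh2, Myh4 and Myh7. A nucleus was called Type IIa when these genes had at least 5 UMIs together, made up at least 0.3% of its UMIs, and Myh2 supplied at least 50% of their sum. This gave 2640 of the 64803 nuclei that passed the study's filters (65280 were deposited). The same rule with another dominant gene gave 3004 Type IIx (Myh1), 34927 Type IIb (Myh4) and 611 slow (Myh7) nuclei, 949 nuclei had no dominant myosin, and 22672 were under the myosin minimum. Ties at exactly 50% went to Type IIa where they included Myh2, and other ties were counted as without a dominant myosin.

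All 8 libraries were labelled wild type (WT), and the mice were C57BL/6. The 4 groups were Old (20 months), Young (3 months), Running (11 months at the start, then 2 months of treadmill sessions of 30 min at 9 m/min) and Sedentary (11 months at the start, no running). Each group had 2 libraries. The labels describe replicate 1 of each group as 10x Genomics. They name no system for replicate 2, called here the second set, and library set was a term in the fits of genes between groups. Sex and the number of mice behind each library were not given in the sources used here, and p-values therefore measure only the spread between libraries.

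Limb muscle fibres of the mouse form a series from slow fibres through IIa and IIx to IIb, in which each myosin sets the speed of contraction. IIa fibres are fast but rich in mitochondria, myoglobin and enzymes of fat oxidation, whereas IIb fibres depend most on glycogen and glycolysis. Myh2, Myh1 and Myh4 stand next to each other in a single chromosomal cluster, and the choice among them is set by activity, calcineurin signalling and transcription factors such as the PPAR, ERR and MEF2 proteins.

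The promoter of Myh2, the gene that defined the class, is shown with those of 3 genes that were higher in IIa than in both IIx and IIb nuclei and are not used by the rule. Each run is 300 bases of RefSeq sequence on GRCm38.p6, from 250 bases before to 50 after the start site, 5′ to 3′. Capitals mark matches on either strand to 5 motifs, which were the E-box CANNTG, the MEF2 consensus, the MCAT element CATTCC, the nuclear receptor hexamer AGGTCA and the CArG box. Motifs were searched one by one, and matches could overlap.
Myh2 promoter, chr11:67170777-67171076, strand +: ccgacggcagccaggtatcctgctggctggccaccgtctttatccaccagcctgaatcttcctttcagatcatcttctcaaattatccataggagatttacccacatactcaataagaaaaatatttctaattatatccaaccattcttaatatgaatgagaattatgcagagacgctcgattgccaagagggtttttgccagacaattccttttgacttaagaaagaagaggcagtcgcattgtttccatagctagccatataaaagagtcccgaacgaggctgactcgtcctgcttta
Ankrd2 promoter, chr19:42035777-42036076, strand +: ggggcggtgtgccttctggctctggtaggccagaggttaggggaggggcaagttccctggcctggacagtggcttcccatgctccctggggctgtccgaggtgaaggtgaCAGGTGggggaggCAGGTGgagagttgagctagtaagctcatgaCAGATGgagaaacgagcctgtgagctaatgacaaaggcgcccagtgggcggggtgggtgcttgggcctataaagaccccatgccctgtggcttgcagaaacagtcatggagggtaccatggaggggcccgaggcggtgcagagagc
Myoz2 promoter, chr3:123034938-123035237, strand -: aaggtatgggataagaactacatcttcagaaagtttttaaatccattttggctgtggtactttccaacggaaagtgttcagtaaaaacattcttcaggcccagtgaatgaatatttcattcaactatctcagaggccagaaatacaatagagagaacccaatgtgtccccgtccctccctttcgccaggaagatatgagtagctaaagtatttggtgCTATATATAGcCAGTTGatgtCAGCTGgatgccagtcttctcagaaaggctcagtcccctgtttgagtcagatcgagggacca
Csrp3 promoter, chr7:48848002-48848301, strand -: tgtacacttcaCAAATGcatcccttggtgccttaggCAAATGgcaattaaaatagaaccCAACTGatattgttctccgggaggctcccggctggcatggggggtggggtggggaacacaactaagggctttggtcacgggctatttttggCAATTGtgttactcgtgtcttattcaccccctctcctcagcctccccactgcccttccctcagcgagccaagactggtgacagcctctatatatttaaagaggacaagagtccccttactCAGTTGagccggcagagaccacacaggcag

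The Myh2 window held none of the 5 motifs. Ankrd2 held E-boxes whose first bases lay at -140, -127 and -96 from the start site. Myoz2 held a MEF2 consensus match at -33 and E-boxes at -22 and -12. The first of the Csrp3 promoters listed held 5 E-boxes, at -239, -214, -191, -100 and 20. Of 32851 mouse promoters of the same length, 72.3% held an E-box, 3.19% the MEF2 consensus, 14.7% the MCAT element, 16.3% the hexamer and 1.63% the CArG box. These matches describe letters in the windows and were not set against any binding data.

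Depth differed between library sets. Total UMIs ran from 23390969 to 44454427 in 10x libraries and from 4839878 to 9278034 in the second set, with medians of 1664 to 3001 and 909 to 1689.5 UMIs per retained nucleus. Pairs of 10x libraries shared 30 to 46 cell barcodes, 0.254% to 0.390% of a library. Old replicate 2 stood apart from the other libraries, since its IIa nuclei had the highest summed levels of marker genes of T cells (199 CPM, the UMIs scaled to a common total of 1000000 per sum, against 4.64 to 41.1 in the others), pericytes or smooth muscle (319 against 28.9 to 100.2), endothelium (246 against 20.9 to 158) and lymphatic endothelium (139 against 0 to 109.8). Counts of called genes without this library are given with the comparisons.

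Type IIa nuclei made up between 0.704% and 8.71% of the retained nuclei of a library. In the 10x set they were 659 nuclei or 5.64% in Old (95% Wilson interval 5.24 to 6.07), 83 or 0.704% in Young (0.568 to 0.871), 262 or 2.02% in Running (1.79 to 2.27) and 922 or 8.71% in Sedentary (8.19 to 9.26). In the second set they were 132 or 2.77% in Old (2.34 to 3.27), 384 or 8.51% in Young (7.73 to 9.36), 51 or 1.21% in Running (0.919 to 1.58) and 147 or 3.47% in Sedentary (2.96 to 4.07). These intervals cover counting error only, and libraries of 1 group differed by far more than that.

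The IIa share did not separate Old from Young. It was 4.94 percentage points higher in Old for 10x libraries and 5.75 points lower for the second set, and the mean difference was -0.406 points (two-sided exact permutation over the 4 libraries without regard to set, p = 1). The direction of this mean turned with the denominator: over nuclei with enough myosin UMIs to be typed the difference was 3.56 points. Running libraries held a smaller share of IIa nuclei than Sedentary libraries in both sets, by 6.69 points (10x) and 2.27 points (second set), with a mean difference of -4.48 points. The exact permutation p for this difference was 0.333, the smallest that 2 libraries against 2 allow. The typed part of a library, on which these shares depend, ran from 45.0% to 66.4% in the 10x set and from 66.2% to 99.9% in the second set.

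The 4 myosins were used to choose the nuclei, so their levels are a description without a test. The median share of Myh2 among the 4 myosins' UMIs in a IIa nucleus was 87.5%, 74.6%, 79.8% and 84.6% in the 10x set (Old, Young, Running, Sedentary). It was 60%, 60.9%, 53.8% and 59.0% in the same groups of the second set, close to the 50% limit. Pooled over IIa nuclei, Myh4 supplied 4.11% to 6.21% of these UMIs for 10x libraries and 23.8% to 37.2% for the second set. Myh1 supplied 9.82% to 22.2% and 6.16% to 8.84%, and Myh7 0% to 0.493% and 0.138% to 1.46%. The next most frequent myosin in IIa nuclei was thus Myh1 in the 10x set and Myh4, the myosin of the most numerous class, in the second set.

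**Figure D1:**
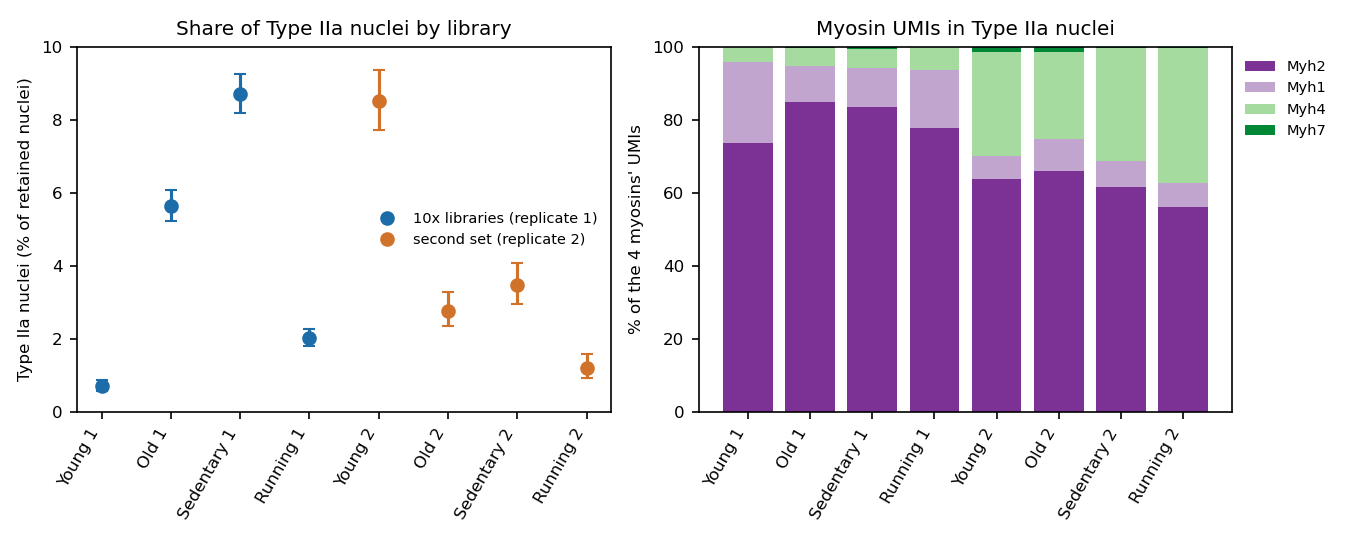
Left, the share of Type IIa nuclei among retained nuclei (%) in each library with 95% Wilson intervals; right, the share of each myosin among the 4 myosins' UMIs of IIa nuclei (%), stacked to 100. Old exceeded Young in the 10x set (5.64% and 0.704%) and fell below it in the second set (2.77% and 8.51%), and Myh4 took 23.8% to 37.2% of the UMIs in second-set IIa nuclei.

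Other myosins were counted in nuclei thinned to 20 myosin UMIs, and nuclei with fewer were left out. This kept 509 of 659, 67 of 83, 215 of 262 and 288 of 922 IIa nuclei of 10x libraries (Old, Young, Running, Sedentary) and 24 of 132, 327 of 384, 39 of 51 and 63 of 147 of the second set. Of the nuclei kept, Myh1 was found in 73.3% to 98.5% of 10x IIa nuclei against 12.2% to 35.7% of 10x IIb nuclei. In the second set these shares overlapped, at 66.7% to 83.3% of IIa and 41.6% to 81.6% of IIb nuclei. In Young replicate 2 the IIa share was the lower (66.7% against 76.1%). Myh4 was found in 43.1% to 60.9% of those 10x IIa nuclei and in 95.8% to 100% of those of the second set. Over all IIa nuclei without thinning, Myh4 was found in 48.8% to 73.3% and in 93.2% to 100%. Conversely, Myh2 was found in 1.08% to 16.9% of 10x IIb nuclei kept and in 31.4% to 61.9% in the second set. Of the 50-base windows of the Myh2 transcript, 19.7% also occurred in Myh1 and 9.94% in Myh4, so some reads can be split between these genes by the counting. The part of such reads in these UMIs was not tested.

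Nuclei on both sides of the 50% limit had like levels of genes outside the rule. In the 10x set, 140 nuclei with Myh2 at 50% to under 60% had 354 CPM of Ankrd2 and 5202 of Mybpc1. The 134 nuclei at 40% to under 50% had 303 and 4843. The 641 nuclei with Myh2 at 90% or more stood at 863 and 7263. In the second set the values were 348 and 6466 CPM inside the limit (349 nuclei) and 364 and 5500 outside it (331 nuclei). Near the limit of 5 myosin UMIs, 10x nuclei had 473 CPM of Ankrd2 at 5 or 6 UMIs and 207 at 3 or 4. Near 0.3% of UMIs, 10x nuclei had 534 CPM at 0.3% to under 0.4% and 851 at 0.2% to under 0.3%.

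Levels of cell type markers are given as a description and do not test the label. The marker lists were chosen with earlier results of these data known, and sums are set beside IIb nuclei only. The 4 markers of Type IIa nuclei (Myh2, Ankrd2, Mybpc1 and Ppara) were all detected in every library. They summed to 12023 to 20269 CPM in IIa nuclei against 458 to 4683 in IIb nuclei, but this sum includes Myh2. In the comparisons below Ankrd2 did not pass against slow nuclei, nor Mybpc1 against IIx or slow nuclei. Markers of IIb nuclei (Myh4, Mylk4, Pde4d and Pvalb) summed to 3039 to 5479 CPM in 10x IIa nuclei and 7428 to 12393 in second-set IIa nuclei, against 15538 to 27203 in IIb nuclei. This sum likewise includes a gene of the rule, Myh4. Sums of markers of other cell types overlapped between IIa and IIb nuclei. Fibro-adipogenic markers stood at 89.4 to 410 against 83.9 to 419 CPM, macrophage markers at 11.2 to 127 against 22.1 to 155, muscle stem cell markers at 0 to 54.9 against 6.34 to 58.9, and endothelial markers at 20.9 to 246 against 22.6 to 291. In some libraries of IIa nuclei 1 or more of these markers had no UMI, including all 3 muscle stem cell markers in Sedentary replicate 2. Neuromuscular junction markers summed to 10.3 to 113 CPM and myotendinous junction markers to 13.7 to 113 CPM in IIa nuclei. The part of such RNA in the comparisons was not tested.

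Type IIa nuclei were compared with IIx, IIb and slow nuclei of the same libraries to ask which genes outside the rule differ between the classes. UMIs were summed per library and class, and all classes were fitted together with library as a block (28 sums, 17 residual degrees of freedom). The 3 comparisons share the IIa sums and are not independent of each other. Levels are given as CPM of the class sum and are not divided by gene length, so they compare classes and not genes. Fold changes are edgeR log2 fold changes, positive where IIa was higher, and a gene was called at a Benjamini-Hochberg adjusted p under 0.05.

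Of 12002 genes tested, 307 (2.56%) were called between IIa and IIx nuclei, 149 (1.24%) higher and 158 (1.32%) lower in IIa. Between IIa and IIb nuclei 3053 (25.4%) were called, 1209 (10.1%) higher and 1844 (15.4%) lower. Against slow nuclei, which reached 20 nuclei in 4 libraries only (both Old libraries, Sedentary replicate 1 and Young replicate 2), 568 (4.73%) were called, 305 (2.54%) higher and 263 (2.19%) lower. The split moved with the scaling: with DESeq2 size factors in edgeR it was 202 higher and 149 lower against IIx, 1502 higher and 1410 lower against IIb, and 197 higher and 361 lower against slow. The median fold change of all genes against slow nuclei moved with it, from 0.0899 to -0.0335, so small shifts there depend on the scaling.

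The number of calls against IIx depended on single libraries. It was 141 without Sedentary replicate 1, 180 without Running replicate 1, 200 without Old replicate 1 and 474 without Old replicate 2. Against slow nuclei it was 218 without Sedentary replicate 1, 315 without Young replicate 2 and 623 without Old replicate 2, and against IIb nuclei it lay between 2065 and 3526 (the latter without Old replicate 2). The 10x libraries alone gave 686 calls against IIx and the second set alone 69. Without Old replicate 2, 46 of the 48 genes named and called against IIx stayed called in the same direction, as did 204 of 206 against IIb and 56 of 58 against slow.

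Ankrd2 (chromosome 19, 42036000 to 42045110, GRCm38), which encodes a stretch-responsive ankyrin repeat protein of the sarcomere's I band, had the largest log2 fold change of the genes named by size against IIb nuclei. In IIa nuclei it had 1368, 154, 139 and 249 CPM in Old, Young, Running and Sedentary of the 10x set and 325, 390.1, 526 and 341 in the second set. It stood at 8.04 to 364 CPM (median 80.3) in IIx and 0.985 to 72.5 CPM (median 23) in IIb nuclei. Old replicate 1 was far above the other libraries, and even the lowest IIa library exceeded every IIb library, whereas IIa and IIx levels overlapped across libraries though not within any of them. The log2 fold change was 4.30 (SE 0.41, edgeR adjusted p 4.24e-10) against IIb and 2.54 (SE 0.41, edgeR adjusted p 0.000236) against IIx, with IIa higher in 8 of 8 libraries for both. In slow nuclei it had 372 to 518 CPM, and the difference from IIa did not pass the test (log2 fold change 0.42, SE 0.48, edgeR adjusted p 0.759).

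A UMI of Ankrd2 was found in 85.1%, 27.7%, 32.8% and 29.5% of 10x IIa nuclei and in 22.7%, 33.6%, 35.3% and 23.8% of second-set IIa nuclei (Old, Young, Running, Sedentary). The share in 1000 IIb nuclei drawn from each of the same libraries was 4.5%, 0.1%, 0.3% and 1.5%, and 5.0%, 8.7%, 4.4% and 2.2%. With each nucleus thinned to 500 UMIs the IIa share was 7.23% to 43.4% and the IIb share 0% to 3.2%. The IIa share exceeded that of IIb nuclei in all 8 libraries at both depths.

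Genes of the sarcomere known from slow and oxidative fibres led the comparison with IIx nuclei. Of 11 such genes tested, 5 were higher and 0 lower in IIa, 6 and 0 against IIb, and 0 and 7 against slow, with median log2 fold changes of 0.44, 1.81 and -3.46 against -0.0145, -0.125 and 0.0899 over all genes. The median against IIb was 2.72 in the 10x libraries alone and 0.13 in the second set alone. Counts of this and later lists are to be read beside the shares of all genes called. These were 1.24% higher and 1.32% lower against IIx, 10.1% and 15.4% against IIb, and 2.54% and 2.19% against slow.

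Myoz2 (chromosome 3, 123006206 to 123035015), whose promoter window held the MEF2 consensus match, encodes the calcineurin-binding Z-disc protein calsarcin-1. It had 58.3 to 347 CPM (median 303) in IIa nuclei, 0 to 67 CPM (median 25.3) in IIx and 0.547 to 106 CPM (median 22.9) in IIb nuclei. The lowest IIa library was Running replicate 1 and lay below the highest libraries of the other classes. IIa was higher than IIx within each of the 8 libraries, which naming by size required. In Running replicate 2 the IIx sum held no UMI. Its log2 fold change was 3.43 (SE 0.49, edgeR adjusted p 5.18e-05) against IIx and 3.86 (SE 0.44, edgeR adjusted p 1.68e-08) against IIb. In slow nuclei it had 771, 621, 1233 and 1113 CPM, above every IIa library, and the fitted value of -0.93 (SE 0.49) did not pass the test (edgeR adjusted p 0.335).

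Csrp3 (chromosome 7, 48830398 to 48848033), the muscle LIM protein gene, had 34.6 to 188 CPM (median 117) in IIa, 0 to 77.6 CPM (median 12.4) in IIx and 0.289 to 50.1 CPM (median 7.31) in IIb nuclei. Its log2 fold change was 2.83 (SE 0.47, edgeR adjusted p 0.000275) against IIx and 3.91 (SE 0.41, edgeR adjusted p 3.09e-09) against IIb. Against slow nuclei it was 1.78 for 10x libraries and -1.64 for the second set, and the joint value of 0.45 did not pass (edgeR adjusted p 0.736). Myom3, an M-band protein, had 165 to 504 CPM (median 345) in IIa nuclei, above every IIx library (25.1 to 87.8 CPM), and was higher by 2.54 (SE 0.42, edgeR adjusted p 0.000278) on the log2 scale. Mybpc1, the slow-type myosin-binding protein C, had 2768 to 7806 CPM (median 6458) in IIa nuclei, 1868 to 5943 CPM (median 4875) in IIx and 338 to 3185 CPM (median 1204) in IIb nuclei, with Old replicate 2 the lowest of the IIa libraries. It was higher in IIa than IIb nuclei (log2 fold change 2.03, SE 0.22, edgeR adjusted p 7.94e-09) and did not pass the test against IIx (0.44, SE 0.21, edgeR adjusted p 0.391) or slow nuclei (0.30, SE 0.28, edgeR adjusted p 0.668).

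For these sarcomere genes the fitted differences from IIb nuclei were smaller in the second set, where IIa nuclei also held more Myh4. Fitted in each set alone, Ankrd2 was higher by 6.30 (SE 0.42) for 10x libraries and 2.92 (SE 0.19) for the second set, Myoz2 by 6.05 (SE 0.35) and 2.16 (SE 0.20), Csrp3 by 5.40 (SE 0.38) and 2.07 (SE 0.26), and Myom3 by 5.68 (SE 0.31) and 2.07 (SE 0.19). For each of these 4 genes the gap between sets was larger than the sum of the SEs. The differences from IIx nuclei were closer between sets for Ankrd2 (2.71 and 2.24, SE 0.37 and 0.25) and Myom3 (2.86 and 2.23, SE 0.29 and 0.25) than for Csrp3 (3.45 and 1.46, SE 0.42 and 0.32).

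The slow ventricular-type myosin light chains Myl2 and Myl3 were intermediate. Against IIx they had log2 fold changes of 2.07 (SE 0.51) and 1.93 (SE 0.42), with 3.77 and 3.22 for 10x libraries and 0.64 and 0.90 for the second set. Against slow nuclei they were -3.46 and -2.49. Among the largest falls against slow nuclei were those of the slow sarcomere genes Myh7b (-6.44), Tnnc1 (-6.07), Tpm3 (-5.92), Tnnt1 (-5.70) and Tnni1 (-5.68) and of Atp2a2, the slow calcium pump (-5.25). Tnnt1, slow troponin T, had 2.73 to 442 CPM in IIa nuclei against 1658, 1459.8, 10776 and 9101 in slow nuclei, with no overlap. In Old and Young of the second set it was also high in IIx nuclei (381 and 276 CPM). The source of those UMIs was not tested.

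**Figure D2:**
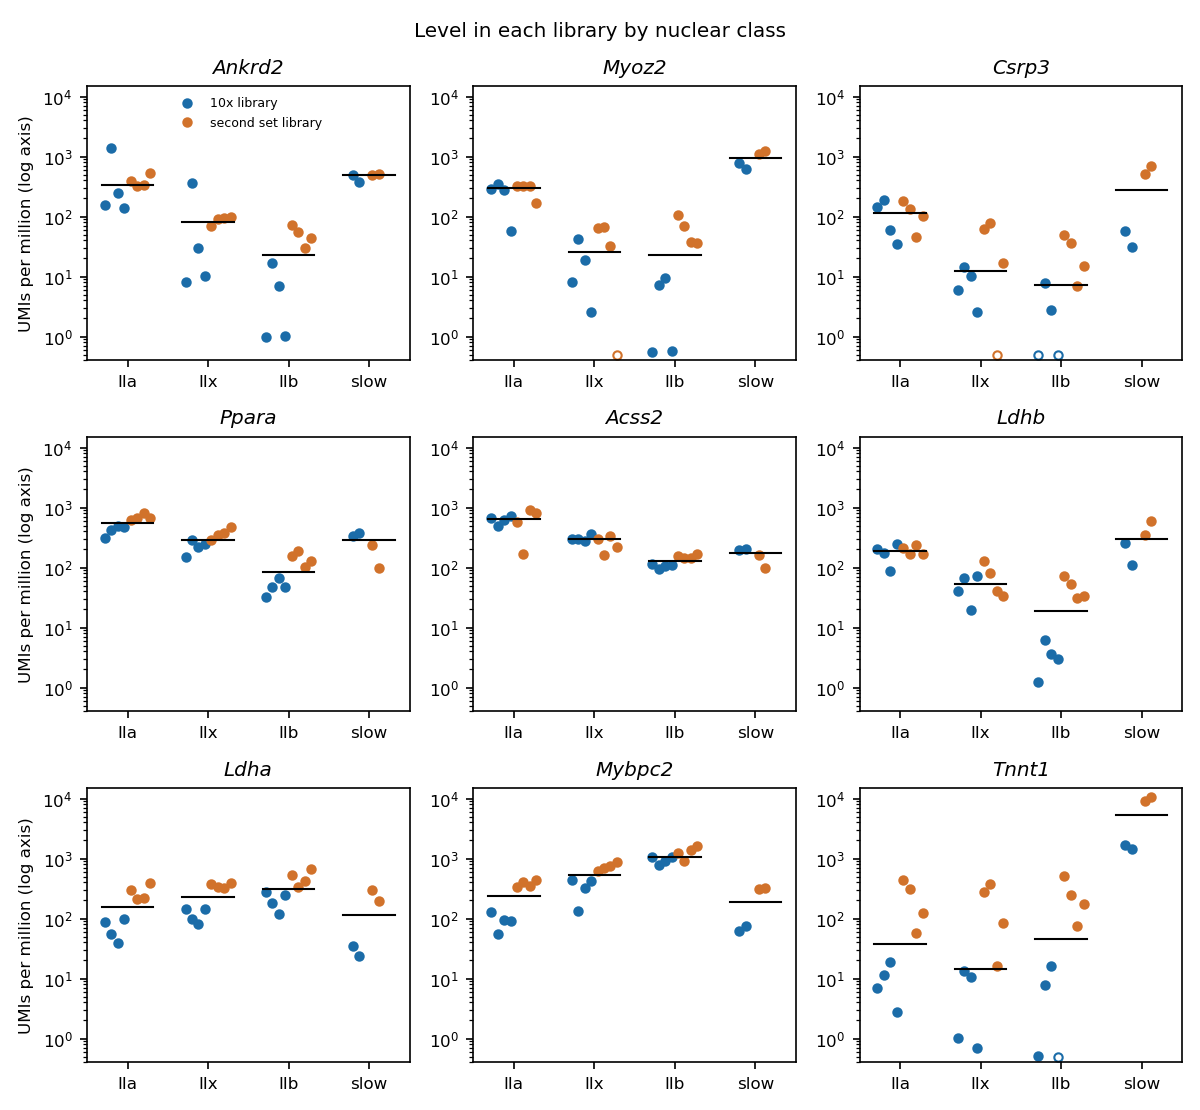
Level of 9 genes (CPM, log axis) in each library by nuclear class (8 libraries for IIa, IIx and IIb, 4 for slow); points are libraries, coloured by library set, bars are medians, and open points at the bottom are values under 0.5 CPM. In IIa nuclei Ankrd2 had a median of 333 CPM against 80.3 in IIx and 23 in IIb, while Ldha had 155 against 233 and 307.

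Genes of the fast sarcomere formed the opposite pattern. Of 12 tested, 5 were lower and 0 higher in IIa than IIx nuclei, 10 and 0 against IIb, and 8 were higher and 0 lower against slow, with medians of -0.27, -1.06 and 1.24. Mylk4, a myosin light chain kinase family member, had 464 to 1749 CPM (median 1189.9) in IIa nuclei and 1777 to 6090.1 CPM (median 2590.0) in IIx, with every IIa library below every IIx library (log2 fold change -1.39, SE 0.20, edgeR adjusted p 5.18e-05). Its fold change against IIb was -2.31. Mybpc2, the fast myosin-binding protein C, fell by 1.37 on the log2 scale against IIx and by 2.78 against IIb. Actn3, the fast alpha-actinin, fell by 0.93 and 2.51, while its paralogue Actn2 was higher in IIa by 0.84 and 3.01 and did not differ beyond the spread from slow nuclei (0.08, SE 0.31).

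Of 16 stretch-responsive and Z-disc genes, 2 were higher and 0 lower than in IIx (Ankrd2 and Csrp3), 8 and 3 against IIb, and 0 and 0 against slow (edgeR, 8 at an unadjusted p under 0.05, and 2 by DESeq2). The 3 falls against IIb were not called with DESeq2 size factors (8 higher, 0 lower). Against slow nuclei the second set alone called 8 of 15 lower and 0 higher, and 10x libraries alone called 2 of 16 higher (Csrp3, 1.78, and Fhl3, 1.10) and 0 lower. Fhl1, a LIM protein, was higher than in IIb by 2.91. Of 21 genes of calcium release and uptake, 0 were higher and 1 lower than in IIx, 2 and 12 against IIb, and 2 and 5 against slow. Pvalb, the calcium buffer parvalbumin, fell by 0.75 against IIx (edgeR adjusted p 0.0441, the only call of that list, lost with DESeq2 size factors) and by 1.96 against IIb. Casq2, the slow calsequestrin, was higher than in IIb by 2.80 and fell by 1.45 against slow, and Sln, the pump inhibitor sarcolipin, fell by 3.90 against slow.

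Most glycolytic genes were lower in IIa than in IIb nuclei. Of 22 tested, 6 were lower and 1 higher than in IIx, 15 lower and 3 higher than in IIb, and 2 higher and 0 lower than in slow nuclei, with medians of -0.37, -0.81 and 0.22. Ldha (chromosome 7, 46841475 to 46855627), the muscle-type lactate dehydrogenase subunit that the study followed, had 39.6 to 391 CPM (median 155) in IIa, 80.5 to 399 CPM (median 233) in IIx and 121 to 669 CPM (median 307) in IIb nuclei. Levels overlapped between classes and the second set ran higher in each, but IIa was lower than IIx within 8 of 8 libraries. The log2 fold change was -0.63 (SE 0.15, edgeR adjusted p 0.0168) against IIx and -1.39 (SE 0.15, edgeR adjusted p 4.15e-09) against IIb.

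Ldhb, the heart-type subunit of the same enzyme, moved the other way, with 86.1 to 244 CPM (median 187) in IIa, 19.9 to 127 CPM (median 53.2) in IIx and 1.24 to 71.7 CPM (median 18.5) in IIb nuclei. Every IIa library exceeded every IIb library, and the log2 fold change was 3.55 (SE 0.41, edgeR adjusted p 2.12e-08) against IIb and 1.57 (SE 0.40, edgeR adjusted p 0.0221) against IIx. Neither subunit passed the test against slow nuclei (Ldha 0.47, SE 0.23; Ldhb -0.28, SE 0.49). Slc16a3, the lactate exporter MCT4, had 22.2 to 44.7 CPM in IIa nuclei, below every IIx library (62.3 to 149.5) and every IIb library (80.9 to 149), with -1.40 (SE 0.16, edgeR adjusted p 2.21e-06) against IIx. Slc16a1, which encodes the transporter MCT1, was higher in IIa than IIb by 1.64. The regulator genes Pfkfb4 (-1.24 against IIx) and Pfkfb3 (-2.66 against IIb) and the glycerol phosphate dehydrogenase Gpd1 (-0.98 and -2.09) were lower.

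Of 12 glycogen genes, 6 were lower and 0 higher than in IIx, 8 and 2 than in IIb, and 3 higher and 0 lower than in slow nuclei. Pygm, muscle glycogen phosphorylase, fell by 0.75 and 1.66, and the phosphorylase kinase subunit Phkg1 by 0.82 against IIx. Tbc1d1, a regulator of glucose transporter traffic, was lower than in IIx (log2 fold change -1.44, SE 0.16, edgeR adjusted p 1.18e-06) and IIb (-1.09) and higher than in slow nuclei (1.99). Of 6 creatine and myoglobin genes, 1 was higher than in IIx (Ckmt2, mitochondrial creatine kinase, 0.58). Against IIb 2 were higher (Mb, myoglobin, 2.45, and Ckmt2, 1.76) and 2 lower (Ampd1, AMP deaminase, -1.70, and Ckm, muscle creatine kinase, -0.70). In the joint fit 0 passed in either direction against slow (edgeR, 0 at an unadjusted p under 0.05, and 0 by DESeq2). There Mb differed by set, at 0.51 (SE 0.41) for 10x libraries and -0.88 (SE 0.20, edgeR adjusted p 0.00188) for the second set.

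Genes of fatty acid uptake and oxidation were mostly higher in IIa than IIb nuclei, with 23 of 26 higher and 1 lower and a median of 1.09. Against IIx, 3 were higher and 2 lower, with 24 of 26 fold changes positive and a median of 0.37, and 5 were higher with DESeq2 size factors. Lpl, lipoprotein lipase, was higher by 1.03 against IIx and 2.56 against IIb, and the fatty acid-binding protein gene Fabp3 by 0.96 and 2.25. Cd36, a fatty acid transporter, was higher than in IIb by 2.47. Ucp3, a mitochondrial uncoupling protein, went against the list, falling by 0.80 against IIx and 0.51 against IIb. Pdk4, pyruvate dehydrogenase kinase, fell by 0.65 against IIx and was higher than in IIb by 0.83. Against slow nuclei 1 was higher and 0 lower in the joint fit. In the second set alone Cd36 was called higher than in slow nuclei (1.09), and Fabp3 (-1.08) and Hadhb (-0.90) lower.

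Nuclear-encoded respiratory chain genes were higher in 28 of 34 cases against IIb, with a median of 0.62, and the second set alone called 9. Against IIx 1 was called (Cox6a2, the muscle subunit of cytochrome oxidase, 0.58), and against slow nuclei 1 was lower and 0 higher. The median against slow was 0.34 for 10x libraries and -0.59 for the second set. Of 20 citrate cycle genes, 10 were higher than in IIb (16 with DESeq2 size factors) and 1 than in IIx, and none was lower in these fits. That 1 gene was Idh2, mitochondrial isocitrate dehydrogenase, with 182 to 514 CPM (median 333) in IIa and 49.8 to 199.6 in IIx nuclei. Its fold change was 1.57 (SE 0.18, edgeR adjusted p 2.07e-06) against IIx and 2.38 against IIb, and it fell by 1.16 against slow nuclei. Over all nuclei of a library and class, the median share of mitochondrial UMIs was higher in IIa than IIx nuclei in 8 of 8 libraries, by 0.0556 percentage points on average (exact sign-flip permutation p 0.0078, adjusted 0.0234 over 6 tests). These medians lay furthest apart in Sedentary replicate 2 (1.47% against 1.20%). Against IIb nuclei the same measure was higher in 5 of 8 libraries, by 0.00485 points (exact permutation p 0.828, adjusted 0.828). The median number of UMIs was higher in IIa than IIb nuclei in 8 of 8 libraries, by 88.6 on average. The rule uses the UMIs of a nucleus, so this difference is given as a description.

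**Figure D3:**
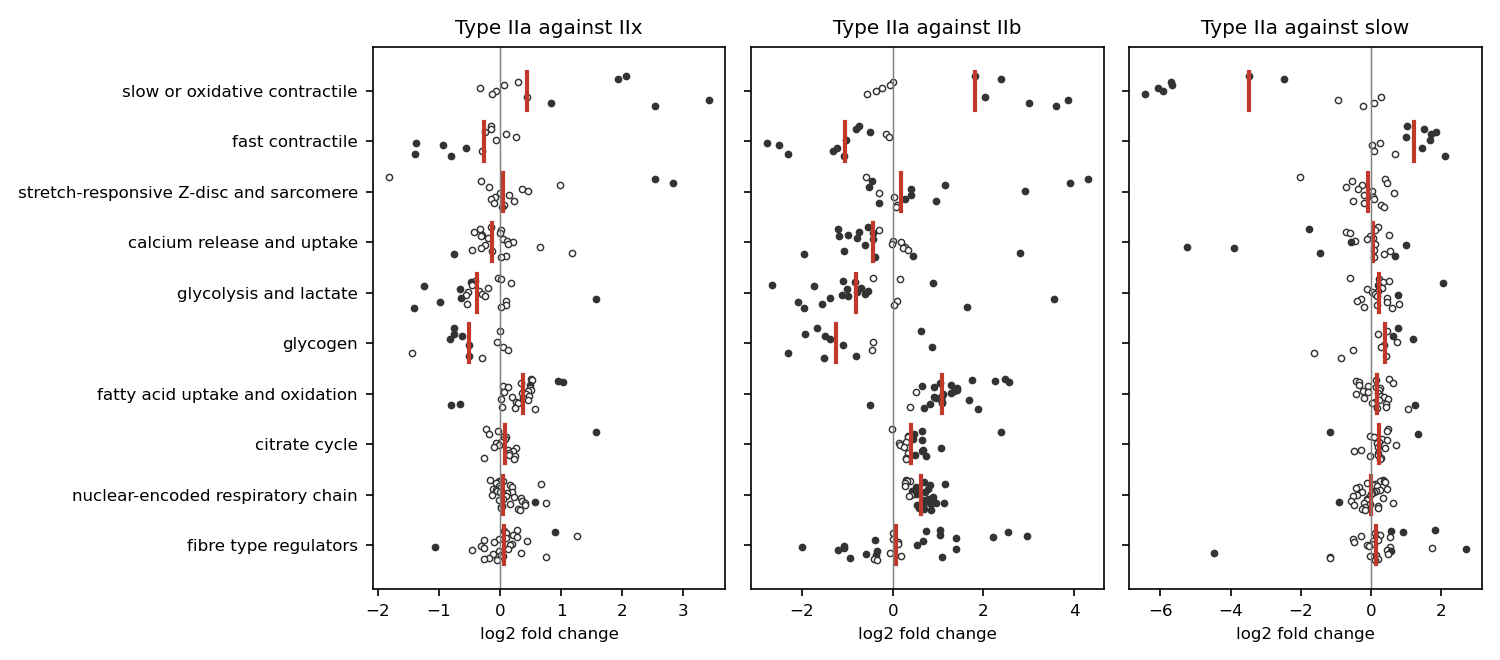
Fitted log2 fold change of each member of 10 gene lists, Type IIa against IIx, IIb and slow nuclei; filled points were called (edgeR adjusted p under 0.05), open points were not, and red bars are list medians. The fast contractile list lay at -0.27 and -1.06 against IIx and IIb and at 1.24 against slow, and the fatty acid list at 0.37, 1.09 and 0.19.

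Ppara (chromosome 15, 85734983 to 85802819), a nuclear receptor for fatty acids, had 312 to 819.8 CPM (median 562) in IIa nuclei, 152 to 482 CPM (median 287) in IIx, 31.7 to 190.3 CPM (median 83.3) in IIb and 98.6 to 369.9 CPM in slow nuclei. The IIa range lay above that of IIb and overlapped that of IIx. The log2 fold change was 0.91 (SE 0.19, edgeR adjusted p 0.00446) against IIx with IIa higher in 8 of 8 libraries, 2.54 (SE 0.19, edgeR adjusted p 9.82e-12) against IIb and 0.93 (SE 0.26, edgeR adjusted p 0.0303) against slow nuclei. Among 28 regulators of fibre type, Ppara was the 1 called higher than in IIx and Maf, a transcription factor tied to fast fibres, the 1 called lower (-1.07). Against IIb 11 were higher and 9 lower (12 and 5 with DESeq2 size factors), with Esrrb (2.96), Esrrg (2.22) and Ppargc1a (1.04), an oxidative coactivator, among the first and Maf (-2.00) and the slow-programme repressor Sox6 (-1.22) among the second. Against slow 5 were higher and 2 lower (2 and 2 with those size factors), including Ppargc1a (1.82) and Prox1 (-4.48), a factor of slow fibres.

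Of 12 calcineurin and CaMK genes, 1 was higher (Nfatc2, 0.62) and 1 lower (Camk2g, -0.43) than in IIx, 2 were higher and 6 lower than in IIb (4 and 4 with DESeq2 size factors), and 1 was higher than in slow nuclei. Of 10 angiogenic and secreted genes, 0 passed against IIx (edgeR, 1 at an unadjusted p under 0.05, and 0 by DESeq2), and 6 were higher and 1 lower than in IIb. These included the fibroblast growth factor Fgf1 (2.30), the irisin precursor Fndc5 (2.19), Metrnl (1.68) and Vegfa (0.999), the vascular growth factor. Against slow nuclei 3 were higher, among them Il15 (2.38) and Vegfa (1.11).

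Of 17 atrophy and denervation genes, 1 was higher than in IIx (Musk, a receptor kinase of the neuromuscular junction, 0.78). Against IIb 5 were lower and 0 higher, where 15.4% and 10.1% of all genes were, with Mstn, the growth inhibitor myostatin, at -2.83. With DESeq2 size factors 3 were higher and 4 lower. Against slow 2 were higher and 2 lower. Of 16 clock genes, 0 passed against IIx (edgeR, 0 at an unadjusted p under 0.05, and 0 by DESeq2), 1 was higher (Npas2, 1.504) and 6 lower against IIb, and 0 passed against slow (edgeR, 2 at an unadjusted p under 0.05, and 0 by DESeq2). Of the 7 called against IIb, Npas2 and Bhlhe41 had no value in the second set alone, and none of the others was called there.

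Among 12 enzymes linked to lactylation, Acss2 (chromosome 2, 155517948 to 155585724), acetyl-CoA synthetase, had 166 to 918 CPM (median 649.9) in IIa, 162 to 358 CPM (median 299) in IIx, 94.7 to 168 CPM (median 129) in IIb and 98.6 to 204 CPM in slow nuclei. The lowest IIa value was that of Old replicate 2, and IIa exceeded IIx in 8 of 8 libraries. The log2 fold change was 1.02 (SE 0.17, edgeR adjusted p 0.000256) against IIx, 2.04 (SE 0.17, edgeR adjusted p 2.73e-11) against IIb and 1.69 (SE 0.25, edgeR adjusted p 1.6e-05) against slow nuclei. It was the 1 member called against IIx and against slow. Against IIb the deacetylase Sirt3 was also higher (0.82), and Hdac3 (-0.77) and Hdac2 (-0.45) were lower. With Acss2, 2 of the 12 were thus called higher and 2 lower, where 10.1% and 15.4% of all genes were. The 16 DNA repair and proteostasis genes that the study chose on these samples are not independent evidence. Of them 1 (Fbxl17, -0.44) was lower than in IIx, 10 were lower than in IIb with a median of -0.53, and 2 were higher than in slow nuclei.

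Other genes named for the size of their difference included the noncoding RNA gene Sox2ot, with 65.2 to 510.2 CPM (median 343) in IIa and 0 to 145 CPM (median 27.8) in IIx nuclei (log2 fold change 3.45, SE 0.53, edgeR adjusted p 0.000143), and Rmst, another noncoding RNA gene (1.94 against IIx and 3.65 against IIb). Fat3, a protocadherin gene, was lower than in IIx (-1.91), with -2.48 for 10x libraries and -0.30 for the second set, and Tspan8, a tetraspanin gene, fell by 1.40. Gm13490 fell by 1.56. Against IIb, Lrrn1 was higher (3.49), and Gm19299 (-3.57), Sorbs2os (-3.34), the adhesion molecule Cadm1 (-3.23), the calcium-sensing receptor Casr (-3.14), D1Ertd622e (-3.09), the integrin Itga4 (-3.02), the actin-regulating oxidase Mical2 (-2.89) and F830016B08Rik (-2.85) were lower. Against slow, Gm32200 (3.27), the cytokine receptor Cntfr (3.14), the sodium channel Scn2a (2.92), Ccdc60 (2.82), the arginine deiminase Padi2 (2.81) and Agbl1 (2.50) were higher.

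Antisense transcripts of the myosin loci differed between the classes. 9430073C21Rik (chromosome 11, 67195680 to 67199234, minus strand, GRCm38 coordinates from GENCODE vM21) overlaps the 3′ end of Myh2 (67171027 to 67197517, plus strand). It had 22.4 to 247 CPM (median 129) in IIa, 3.53 to 62.9 CPM (median 27.5) in IIx, 5.01 to 22.9 CPM (median 6.59) in IIb and 0 to 22.8 CPM in slow nuclei. Its fold change was 2.16 against IIx, 3.81 against IIb and 4.29 against slow. Myhas (67211256 to 67237573, minus strand) overlaps Myh1 (67200052 to 67224575, plus strand) and ends before Myh4. It was lower in IIa nuclei, at -1.78 against IIx and -2.47 against IIb. The fall was thus larger against IIb than against IIx, the class of the myosin that Myhas overlaps. Against slow nuclei Myhas did not pass the test (0.76, SE 0.39, edgeR adjusted p 0.326). Mhrt and Gm31251, which overlap Myh7 on chromosome 14, were lower than in slow nuclei (-7.33 and -7.78). Use of strand in the counting was not stated, so reads of these genes cannot be told apart from those of the myosins that set the classes, and these values are a description.

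Old and Young were compared within IIa nuclei to ask which of their genes differ with age, and Running and Sedentary which differ with training. Both comparisons came from 1 fit of the 8 IIa sums with group and library set as terms (3 residual degrees of freedom). Of 8202 genes, 0 (0.0%) were called between Old and Young by edgeR, with 259 at an unadjusted p under 0.05, and DESeq2 called 0 with 227. Between Running and Sedentary edgeR called 0 (0.0%) with 179 unadjusted, and DESeq2 0 with 124. Single libraries changed these counts, in fits that leave 1 group with a single library and take the spread from the other groups (2 residual degrees of freedom). Without Old replicate 1, 278 genes were called for age and 24 for running. Without Old replicate 2, 28 and 19 were called, and without Sedentary replicate 2, 1 and 28. In simulated counts the main fit called 3% of genes changed 2-fold with age and 26% of those changed 4-fold. Its 0 calls therefore do not show that few genes differ, and the values that follow are descriptions of 2 libraries against 2.

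Among genes with the smallest p-values with age, Nrp1, a receptor for semaphorins and vascular growth factor, had 175 and 119 CPM in Old replicates 1 and 2 against 765 and 271 in Young, so that Old was lower in both sets and the groups did not overlap. Its log2 difference was -1.72 (SE 0.36, edgeR adjusted p 1). Me3, mitochondrial malic enzyme, had 142 and 99.6 CPM in Old replicates 1 and 2 against 487 and 264 in Young, again without overlap (log2 fold change -1.55, SE 0.36, edgeR adjusted p 1). Gm16093 had 155 and 13.3 CPM in Old replicates 1 and 2 against 24 and 2.42 in Young and was higher in Old within each set, the second set holding few UMIs (log2 fold change 2.64, SE 0.56, edgeR adjusted p 1). Ankrd2 had 1368 and 325 CPM in Old replicates 1 and 2 against 154 and 390.1 in Young. Its difference was 3.16 for 10x libraries and -0.23 for the second set, and the joint value of 1.84 (SE 0.69) turned to -0.10 without Old replicate 1.

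Ldha had 54.6 and 212 CPM in Old replicates 1 and 2 against 89.2 and 297 in Young, lower in Old within both sets by 0.66 and 0.45 on the log2 scale, a difference that did not pass the test (log2 fold change -0.55, SE 0.34, edgeR adjusted p 1). Ppara, Mybpc1 and Acss2 differed by 0.27 (SE 0.31), -0.72 (SE 0.37) and -0.87 (SE 0.41). Several gene groups had mostly negative values although no member was called. The respiratory chain was negative in 28 of 34 genes (median -0.29), the citrate cycle in 17 of 20 (-0.25), the fast contractile list in 11 of 12 (-0.43) and glycolysis in 16 of 21 (-0.26). Over all genes the median was 0.00438. The same lists are set beside the change in IIx and IIb nuclei with the interaction below. In both library sets 18 respiratory chain genes were lower in Old and 2 higher, where 24.6% of all genes were lower in both sets and 24.2% higher. Of the 16 study-chosen genes 15 were negative (median -0.31). The study named them as lower in old muscle from these samples, so their signs are not independent evidence.

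Most of the other lists also had negative medians with age. Glycogen genes had a median of -0.37 (8 of 11 negative), calcium genes -0.28 (15 of 20), angiogenic and secreted genes -0.35 (8 of 8), lactylation enzymes -0.25 (7 of 11), fatty acid genes -0.12 (17 of 25), calcineurin and CaMK genes -0.21 (9 of 12) and regulators -0.15 (17 of 24). Clock genes had 0.07 (12 of 16 positive). Medians of the slow or oxidative list (-0.28, 0.11 by DESeq2), the Z-disc list (-0.04, 0.05) and the atrophy list (-0.04, 0.02) changed sign with the tool. Creatine and myoglobin genes stood at -0.06.

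With running, Myoz2 was among the 3 genes with the smallest p-values. It had 58.3 and 168 CPM in Running replicates 1 and 2 against 282 and 318 in Sedentary, lower in Running in both sets and without overlap (log2 fold change -1.77, SE 0.40, edgeR adjusted p 1). Atp5j2, an ATP synthase subunit gene, had 57.4 and 347 CPM in Running replicates 1 and 2 against 17.8 and 80.8 in Sedentary, higher in Running within each set (log2 fold change 1.83, SE 0.38, edgeR adjusted p 1). Gm29506 had 2.73 and 11.2 CPM in Running replicates 1 and 2 against 48.1 and 150.1 in Sedentary, where the Running values rest on 3 and 1 UMIs (log2 fold change -4.13, SE 0.66, edgeR adjusted p 0.343). None of the 3 was called.

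Ldha had 98.3 and 391 CPM in Running replicates 1 and 2 against 39.6 and 219 in Sedentary, higher in Running within each set (log2 fold change 1.05, SE 0.33, edgeR adjusted p 1). Ankrd23, a paralogue of Ankrd2, had 581 and 358 CPM in Running replicates 1 and 2 against 58.6 and 167 in Sedentary, also higher within each set and without overlap (log2 fold change 2.57, SE 0.60, edgeR adjusted p 1). Ankrd2 itself differed by -0.86 for 10x libraries and 0.56 for the second set. The respiratory chain was positive in 32 of 34 genes (median 0.58), with 21 higher and 1 lower in Running in both sets, where 24.1% and 26.8% of all genes were. Glycolysis was positive in 15 of 21 genes (0.51), the fatty acid list in 19 of 25 (0.31), the fast contractile list in 10 of 12 (0.39), calcium genes in 15 of 20 (0.44) and creatine and myoglobin genes in 6 of 6 (0.47). The slow or oxidative contractile list was negative in 8 of 10 (-0.67). None of these members was called, and depth per nucleus in IIa differed between these libraries (median 3556 and 1460 UMIs in Running against 2242.5 and 969 in Sedentary), whose part in the values was not tested.

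The remaining lists had medians near that of all genes with running (-0.00461). They were 0.14 for the citrate cycle, 0.15 for regulators, 0.12 for angiogenic and secreted genes, 0.11 for atrophy and denervation, -0.01 for calcineurin and CaMK, -0.02 for lactylation enzymes, -0.08 for glycogen, -0.10 for the clock, -0.12 for Z-disc genes and -0.06 for the study-chosen genes.

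**Figure D4:**
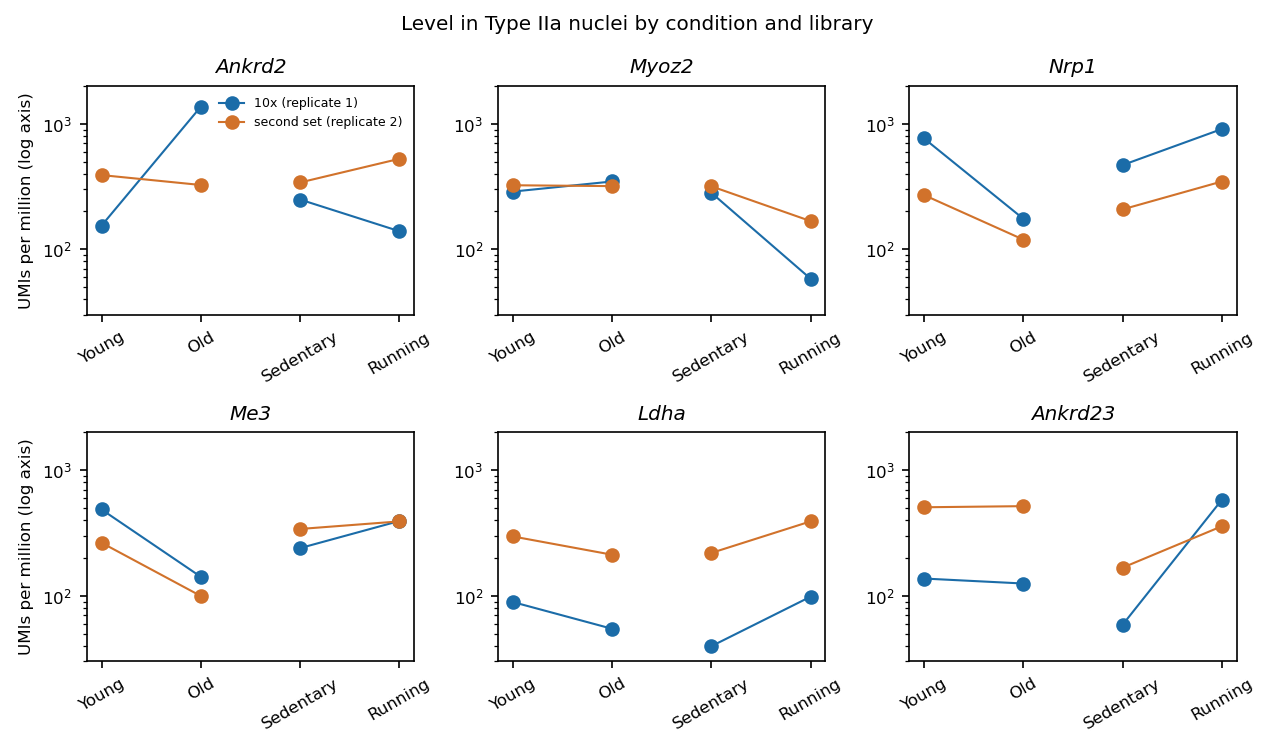
Level of 6 genes (CPM, log axis) in Type IIa nuclei by group; points are libraries, and lines join the Young and Old, and the Sedentary and Running, libraries of 1 library set. Nrp1 and Me3 were lower in Old in both sets, Ldha and Ankrd23 higher in Running in both sets, and Ankrd2 rested on Old replicate 1 (1368 CPM).

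Whether the difference with age or running was another in IIa nuclei than in the faster classes was tested as an interaction, the difference in IIa minus the mean of those in IIx and IIb (24 sums, 8 residual degrees of freedom). Of 17450 genes, 1 (0.00573%) was called for age and 0 (0.0%) for running. The unadjusted counts were 632 and 462, and DESeq2 called 0 of each with 209 and 112 unadjusted. In simulated counts this fit called 1% of genes changed 2-fold with age in IIa nuclei only and 18% of those changed 4-fold. The gene called for age was Sema3a (chromosome 5, 13125414 to 13602565), a secreted guidance cue that binds neuropilin-1, with a log2 interaction of -3.01 (SE 0.60, edgeR adjusted p 0.0181). In IIa nuclei it had 2.85 and 133 CPM in Old replicates 1 and 2 against 408 and 19.3 in Young, so that Old was lower in the 10x set and higher in the second set. Young replicate 1 supplied 119 UMIs, 106 of them from 1 of its 83 nuclei. Without this library the value was -1.04 (edgeR adjusted p 1) and Sema3a was not called. The number of calls for age was 37 without Young replicate 2, 6 without Old replicate 1 and 2 without Old replicate 2, and for running it was 3 without Old replicate 2 and 5 without Old replicate 1. For running the smallest p-values were those of Slit2, a guidance ligand (-4.63, SE 1.01, edgeR adjusted p 0.0929), Fosb (11.12, SE 2.45, on 9 UMIs in all IIa nuclei) and Fam155a (3.09, SE 0.75). The median of all genes for running was -0.179, and -0.0662 with DESeq2 size factors. For age it was 0.0425. The age interaction was positive in 31 of 34 respiratory chain genes (median 0.33) and 14 of 20 citrate cycle genes (0.14). It was positive in 10 of 12 fast contractile genes (0.29) and 11 of 22 glycolysis genes (0.02), with no member of these lists called. The negative values of these lists with age in IIa nuclei are thus not shown to be particular to IIa.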

How the data were processed

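Single nuclei of mouse gastrocnemius were sequenced in 8 libraries, 2 for each of Old, Young, Running and Sedentary. For each library the authors deposited 1 matrix of raw UMI counts, with genes by nuclei. The submitters' processing notes name Cell Ranger 6.1.2, Seurat 4.1.1 and mm10. The labels give 10x Genomics for replicate 1 and tie no droplet system to replicate 2. Whether intronic reads or strand were used is not given in the sources used here.

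As in the study, a nucleus was kept if its gene number lay above 200 and below 6000 and mitochondrial UMIs were under 6%. Doublets stayed in. Symbols found in all 8 files (21207) were used. The 12 mitochondrial, 82 ribosomal protein and 4 rule genes were left out of tests (21109 remained). Raw UMIs were summed per library and class (at least 20 nuclei), CPM were taken over all shared symbols, and sums were tested with edgeR 4.0.16 (quasi-likelihood, TMM, filterByExpr, Benjamini-Hochberg, threshold 0.05) in R 4.3.3. Fits are given with the results. Replicate numbers come from deposition order, and library set pairs the libraries: deviations from group means correlated within sets by 0.195 to 0.448. Intervals are 95% Wilson intervals. Pipelines were tested on simulated data. Totals per library were 4839878 to 44454427 UMIs. Positions come from GENCODE vM21 and promoters from RefSeq.

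The members, 18 gene lists and marker lists were chosen with earlier results of these data known. Named were the 4 myosins, Ankrd2, Mybpc1, Ppara, Ldha, the study's 16 genes as a group, 2 to 4 called or defining genes a list, and per comparison up to 8 called genes in each direction with the largest change, a mean log2 CPM not under 5 and 1 direction throughout, or the 3 with the smallest p. Alternatives were DESeq2 1.42.0, its size factors in edgeR, testing without the low-count filter, 75% dominance, 10 myosin UMIs, 50 nuclei per sum, no nuclei with the 6% highest Scrublet scores (Scanpy 1.11.5), single library sets, no library set term, fewer groups and each library left out.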

Additional observations from a re-analysis of the deposited data

Results flagged for a closer look

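The age difference of Sema3a was lower in IIa nuclei than in IIx and IIb nuclei, with an interaction of -3.01 on the log2 scale (SE 0.60, edgeR adjusted p 0.0181), the 1 gene whose difference between Old and Young itself differed between nuclear classes. The difference in IIa minus the mean of the others was -3.97 for 10x libraries and -0.42 for the second set. Sema3a had 2.85 and 133 CPM in IIa nuclei of Old replicates 1 and 2 against 408 and 19.3 in Young, 1.38 and 159 against 28.1 and 11.1 in IIx nuclei, and 20.9 and 164 against 48.7 and 35.6 in IIb nuclei. The value in Young replicate 1 came from 5 of 83 IIa nuclei, and 106 of its 119 UMIs from 1 nucleus. The call was lost with DESeq2 size factors (-3.10), with DESeq2 (-2.94), at 75% dominance (-2.23), at 10 myosin UMIs (-3.13), and without Old replicate 1 (-2.47), Old replicate 2 (-2.97) or Young replicate 1 (-1.04).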

How the results depend on the processing

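Depth and the number of nuclei limit these results: the IIa sum of Running replicate 2 holds 51 nuclei and 89408 UMIs, and the comparisons between groups rest on 2 libraries each. Myh4 was found in 93.2% to 100% of IIa nuclei of the second set.

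The count of genes called against IIx was 686 in the 10x set alone and 69 in the second set alone, and 141 to 474 with 1 library left out. Against IIb it was 681 in the second set alone and 2065 to 3526 with 1 library left out, and against slow nuclei 218 to 623. Of 206 genes named and called against IIb, 119 stayed called in the second set alone, 72 were lost, 3 reversed and 12 had no value. Counts between Old and Young were 1 with no filter and 0 to 278 with 1 library left out, and between Running and Sedentary 2 and 0 to 28. The age interaction gave 0 calls with DESeq2, with its size factors and at 10 myosin UMIs, 2 without the highest Scrublet scores, and 0 to 37 with 1 library left out. The running interaction gave 3 with at least 50 nuclei per sum, 2 with no filter and 0 to 5 with 1 library left out. With no replicate block (library set term removed), 0 genes were called between Old and Young (83 unadjusted, 259 with the term) and 0 between Running and Sedentary (38 unadjusted, 179 with the term). Calls of 0 in both fits say nothing of stability. At 75% dominance the fit between groups held 6 sums with 1 residual degree of freedom.

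The difference in IIa share between Old and Young reversed to 3.56 points over typed nuclei, 1.92 at 75% dominance, 1.03 without Old replicate 2 and 3.499 without Young replicate 2 (range -4.31 to 3.499 with 1 library left out). Between Running and Sedentary it ranged from -7.10 to -1.86 points. In the second set alone, Ankrd23 (0.019), Mef2c (0.047) and Cry1 (0.16) reversed against IIb and Ankrd2 (-0.23) and Ldha (-0.027) against slow. Mybpc1 against slow was -0.077 at 75% dominance. Between Old and Young, Ankrd2 ranged from -0.10 (without Old replicate 1) to 2.98 and Ppara from -0.17 (without Young replicate 1) to 0.59. Between Running and Sedentary, Ankrd2 ranged from -1.05 to 0.74 (without Running replicate 1) and was 0.030 with no replicate block, and Ppara ranged from -0.48 to 0.0059 (without Running replicate 2). The running interaction of Fam155a ranged from -6.86 (without Running replicate 1) to 3.63. The cause was not tested.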
